A study of Homo sapiens with 9 samples.

Results

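The genes described here were 38 NF-kappaB, cytokine and chemokine genes, taken by symbol from a table of 58299 genes and found in all 9 libraries' columns. The symbols came from a list of inflammatory ligands, adhesion and prostaglandin genes, feedback inhibitors, NF-kappaB subunits and TNF receptor complex genes. This list was chosen with earlier results of these data known. Each symbol matched 1 Ensembl gene ID. Of the 38 genes, 28 had enough counts to be tested and 10 were too low.

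The cells were AC16, a proliferating human line made by fusing adult ventricular heart cells with SV40-transformed fibroblasts, cultured in medium with serum. There were 3 groups of 3 libraries: vehicle (0.1% DMSO for 72 h), 100 nM CDDO-Me for 24 h, and 100 nM CDDO-Me for 72 h. The agent, also known as bardoxolone methyl, is a synthetic triterpenoid known to stabilise the transcription factor NRF2 by binding its repressor KEAP1. Some titles shorten its name to CDDO, and the treatment label was followed. All groups came from the same line, with no gene edited and no cytokine or other inflammatory stimulus named in the labels. A 24 h vehicle group was not analysed here, so the 24 h group and the vehicle differed in culture time as well as in the agent, and the contributions of these cannot be told apart. Nothing in the labels ties the replicates to separate cultures, so the p-values measure only how these libraries varied, which may be technical variation.

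NF-kappaB is a family of dimeric transcription factors (RELA, RELB, REL and the products of NFKB1 and NFKB2) that inhibitors such as NFKBIA hold in the cytoplasm. Receptors for TNF, interleukin 1 and bacterial products activate the kinases IKBKB and CHUK, which mark the inhibitors for degradation, and the freed dimers bind kappaB sites near cytokine, chemokine and adhesion genes. Some of the targets, among them NFKBIA, TNFAIP3 and BIRC3, act back on the pathway, so their RNA is often read as a sign of its activity. In other cells CDDO-Me has been described as an inhibitor of this pathway as well as an activator of NRF2.

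KappaB matches near some of the member genes are shown first, because they are the letters that NF-kappaB dimers are known to bind. Of the genes shown, BIRC3, IL32, TNFAIP3 and ICAM1 had fallen in the results below. CXCL1, CXCL2, IL6 and NFKBIA did not pass the threshold in the fit of all libraries, and CXCL3 was too low to test. IL1B and LIF, which had also fallen, are not shown, as IL1B held no match and LIF had no RefSeq promoter. They were found by searching the RefSeq promoters (GRCh38.p14, 250 bases before each gene's start) with the kappaB consensus, or for ICAM1 with the shorter GGANNTTCC. Capitals mark the matches, and all sequences run 5′ to 3′ on the gene's own strand. The longest is the stretch before BIRC3 at chr11:102317234-102317449 (plus strand), which held a pair of separate matches. The 30-base windows are at chr6:137867188-137867217 for TNFAIP3, chr16:3065294-3065323 for IL32, chr19:10270923-10270952 for ICAM1, chr4:73869304-73869333 for CXCL1 and chr7:22727117-22727146 for IL6 (all plus strand). Those on the minus strand are at chr4:74099254-74099283 for CXCL2, chr4:74038749-74038778 for CXCL3 and chr14:35404811-35404840 for NFKBIA. CXCL1, CXCL2 and CXCL3, neighbouring paralogs, carried the same capital letters.
BIRC3: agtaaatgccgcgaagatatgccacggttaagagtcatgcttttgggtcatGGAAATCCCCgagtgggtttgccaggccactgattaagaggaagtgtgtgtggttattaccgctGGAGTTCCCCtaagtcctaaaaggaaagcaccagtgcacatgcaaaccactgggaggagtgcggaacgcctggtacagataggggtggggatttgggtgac
IL32: cctgtactcaGGGAGTTTCCCcagccagct
TNFAIP3: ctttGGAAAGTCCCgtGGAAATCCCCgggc
ICAM1: tgctttagcttGGAAATTCCggagctgaag
CXCL1: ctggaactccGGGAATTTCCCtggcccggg
CXCL2: ctggagctccGGGAATTTCCCtggcccggg
CXCL3: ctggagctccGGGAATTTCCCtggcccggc
IL6: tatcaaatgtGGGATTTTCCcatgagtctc
NFKBIA: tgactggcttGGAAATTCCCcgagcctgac

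Total counts ran from 16898977 to 27910031 per library, so that 3 counts, the limit that a count of 0 allows, equalled 0.107 to 0.178 CPM (counts scaled to a common library total). The NRF2 target NQO1 separated the groups in the direction of the labels, with 419.5 to 495.2 CPM in vehicle, 1685.6 to 2169.3 at 24 h and 3305.8 to 3386.3 at 72 h. Replicate 3 of the 24 h group stood apart from its own group. Its counts differed from those of replicates 1 and 2 by a chi-square over degrees of freedom of 40.2 and 37.9, against 4.98 between replicates 1 and 2, so results are given with and without it below. DMSO replicate 1 was the less like the other vehicle libraries (14.6 and 18.6, against 8.76 between replicates 2 and 3). Of 7 cardiac muscle markers none was high enough to test, and MYH6, MYH7 and MYL2 were at 0 in all libraries, whereas fibroblast markers summed to 12611.3 to 19000.7 CPM. The 8 leukocyte markers summed to 1.82 to 3.58 CPM, with CD3E, MS4A1 and HLA-DRA at 0 in all libraries. The 5 endothelial markers summed to 13.3 to 15.6 CPM in vehicle, 10.9 to 12.3 at 24 h and 7.75 to 8.28 at 72 h. Most of this sum was TEK, with means of 12.5, 9.51 and 7.01 CPM, while PECAM1, VWF, KDR and CDH5 each had means under 1 CPM. The part of these markers in the results below was not tested.

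Of the tested inflammatory genes, 2 were lower than the 72 h vehicle after 24 h of CDDO-Me and 6 after 72 h. None was called higher in the fit of all libraries. At 24 h the genes IL1B and LIF were lower than in this vehicle, which differed in culture time as well. At 72 h these and IL32, ICAM1, TNFAIP3 and BIRC3 had fallen, by 1.47-fold (ICAM1) to 3.30-fold (IL1B). None of the 5 NF-kappaB subunit genes was called in any comparison.

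In numbers, 2 of 28 tested members (7.14%) were lower at 24 h at an adjusted p under 0.05, where 1.18% of all 14965 tested genes were lower and 0.969% higher (2.15% in either direction, edgeR quasi-likelihood test with Benjamini-Hochberg adjustment). At 72 h 6 of 28 members (21.4%) were lower, against 3.13% of all genes, and none was higher, against 2.89% (6.02% in either direction). Between 72 h and 24 h only ICAM1 of the 28 (3.57%) was lower, against 0.568% of all genes, and none was higher, against 0.448% (1.02% in either direction). With none called higher, 8, 10 and 9 members had an unadjusted p under 0.05 in either direction at 24 h, at 72 h and between the times. The share of all genes under this limit was not counted, so these counts are not read as a result. At 24 h and between the times they mix directions. PTGS2 and TNFAIP2 were above 0 at 24 h, and CXCL2, NFKBIZ and REL between the times. At 72 h all 10 were below 0. DESeq2 and limma-voom called no member higher either. The 24 h and 72 h comparisons share the vehicle libraries. Because the members were chosen with earlier results of these data known, their shares beside those of all genes are no independent result.

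Most of the uncalled members also had values below 0 at 72 h. The median log2 fold change of the 28 was -0.05 at 24 h, -0.34 at 72 h and -0.23 between the times, where the medians of all tested genes were 0.007, -0.001 and -0.006. At 72 h 21 of 28 members (75.0%) had a value below 0, against 50.2% of all tested genes. In 17 of 28 (60.7%) all 3 libraries at 72 h lay below all 3 vehicle libraries, which held for 15.2% of all genes, and in 3 members (CSF1, NFKBIZ and NFKB2) all lay above, against 15.5%. At 24 h 5 members (17.9%) lay wholly below vehicle, against 6.74% of all genes, and none wholly above, against 6.73%. Between the times 7 members (25.0%) lay wholly lower at 72 h, against 10.2%, and 3 (10.7%) wholly higher, against 10.8%. The library medians of the 28 members relative to the vehicle mean ran from -0.04 to 0.04 in vehicle, from -0.27 to -0.04 at 24 h and from -0.37 to -0.24 at 72 h on the log2(CPM + 0.5) scale. As the members were chosen with earlier results known, these shares and medians are no independent result either. In bulk RNA, fewer cells that express a gene and less RNA per cell cannot be told apart.

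These counts moved with single libraries, and so did the counts over all genes. Without replicate 3 of the 24 h group, 4 members were higher at 24 h (CSF1, ICAM1, NFKB2 and TNFAIP2) and 4 were lower (IL1B, LIF, BIRC3 and BIRC2). Without it, 10 members were lower and 1 higher at 72 h, and 9 were lower between the times. The counts of 10 and 9 include CCL5, which was too low to test with all libraries and is not among the 28. Over all genes the same fit called 1657 at 24 h, 1972 at 72 h and 1843 between the times in either direction, where all libraries gave 321, 901 and 152. The median log2 fold changes without it were -0.07, -0.34 and -0.33. When DMSO replicate 1 was also left out, 5 were higher and 6 lower at 24 h, 1 higher and 11 lower at 72 h, and 16 lower between the times, in a fit that called 3464, 2724 and 3471 of all genes.

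**Figure D1:**
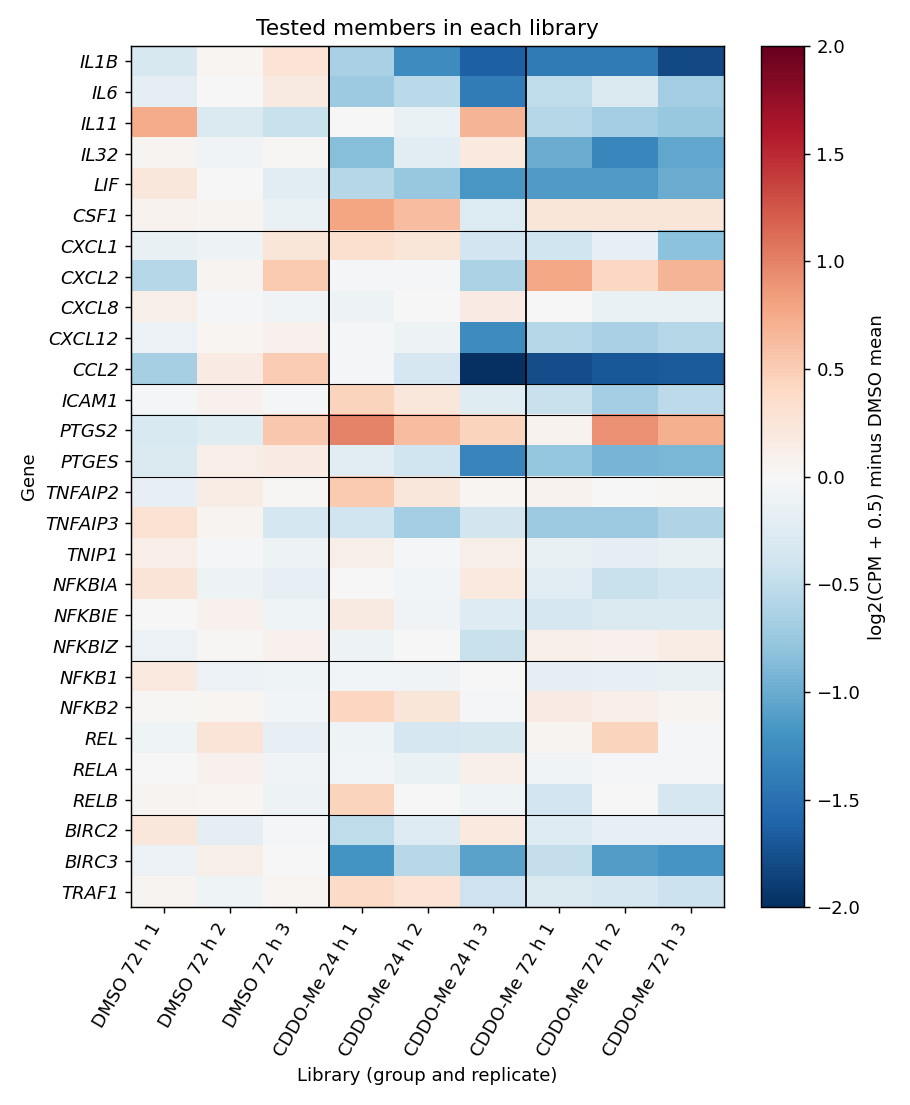
Each row is 1 of the 28 tested members, ordered by role, and each column is 1 library; colour gives log2(CPM + 0.5) minus the gene's vehicle mean, with blue below it and red above it. IL1B, LIF and BIRC3 are blue in all CDDO-Me libraries, the subunit rows are pale throughout, and replicate 3 of the 24 h group differs from replicates 1 and 2 in CSF1, CXCL12 and CCL2.

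Among the 11 cytokine genes, 6 were high enough to test. At 24 h 2 of these 6 had fallen and at 72 h 3 had fallen (IL1B, LIF and IL32), while IL6, IL11 and CSF1 were not called.

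IL1B (chromosome 2, 112829751 to 112836903, minus strand, GRCh38) encodes interleukin 1 beta, an inflammatory cytokine that is itself an NF-kappaB activator. Its level was 6.56, 8.54 and 10.2 CPM in the vehicle libraries, 5.12, 3.19 and 2.34 at 24 h, and 2.81, 2.81 and 2.03 at 72 h. Every CDDO-Me library lay below every vehicle library, and the times overlapped. IL1B had fallen 2.42-fold at 24 h (log2 fold change -1.27 ± 0.27 SE, edgeR adjusted p = 0.0198) and 3.30-fold at 72 h (-1.72 ± 0.27, edgeR adjusted p = 0.00148). The difference between the times was -0.45 ± 0.29 (edgeR adjusted p = 0.539). The 72 h call held in each of 16 alternative fits, whereas the 24 h call was lost without DMSO replicate 2, DMSO replicate 3 or 24 h replicate 2 (adjusted p of up to 0.103), and with only the compared groups in the fit (0.0676).

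LIF (chromosome 22, 30240447 to 30246851, minus strand) encodes leukemia inhibitory factor, a cytokine of the interleukin 6 family that acts on heart muscle cells among others. Its vehicle libraries held 37.2, 31.6 and 26.9 CPM, its 24 h libraries 21.2, 18.5 and 13.9, and its 72 h libraries 14.1, 14.1 and 15.6. Both treated groups lay wholly below vehicle. LIF had fallen 1.79-fold at 24 h (-0.84 ± 0.15, edgeR adjusted p = 0.00846) and 2.18-fold at 72 h (-1.13 ± 0.15, edgeR adjusted p = 0.000421), with no call between the times (-0.29 ± 0.16, edgeR adjusted p = 0.458). Both calls held in all 16 alternative fits, at adjusted p of up to 0.0487 and 0.00505.

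IL32 (chromosome 16, 3065297 to 3082192, plus strand), is a cytokine gene that TNF induces and that rodents lack. It had 2.84, 2.55 and 2.76 CPM in vehicle, 1.28, 2.28 and 3.18 at 24 h, and 1.11, 0.796 and 1.07 at 72 h. The 24 h libraries were the most spread, and the 72 h libraries lay below both other groups. IL32 had fallen 2.72-fold at 72 h (-1.44 ± 0.33, edgeR adjusted p = 0.0162). The log2 differences at 24 h (-0.25 ± 0.30, edgeR adjusted p = 0.800) and between the times (-1.20 ± 0.33, edgeR adjusted p = 0.115) did not pass. The 72 h call was lost without DMSO replicate 2 or any single 72 h library (adjusted p of up to 0.0963), and the 24 h value turned to 0.02 without 24 h replicate 1.

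**Figure D2:**
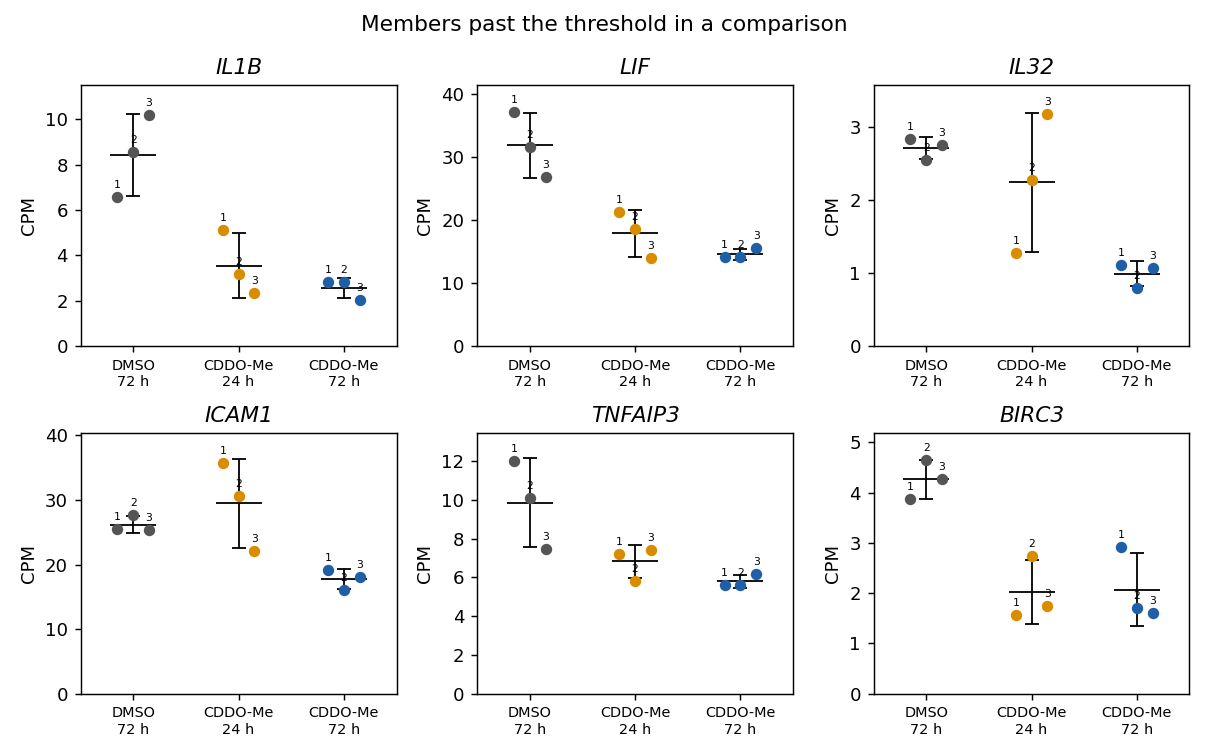
Points are CPM in single libraries, numbered by replicate, for the 6 members called in at least 1 comparison; bars are the mean ± SD of 3 libraries, and each axis starts at 0. At 72 h all 6 genes lie wholly below vehicle, and for ICAM1 the 24 h libraries range from 22.1 to 35.8 CPM around the vehicle values.

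IL6, the archetypal NF-kappaB-induced cytokine, had 2.27, 2.66 and 3.05 CPM in vehicle, 1.40, 1.67 and 0.694 at 24 h, and 1.70, 2.07 and 1.44 at 72 h. Neither treated group overlapped vehicle, but the log2 differences of -1.11 ± 0.32 at 24 h (edgeR adjusted p = 0.106) and -0.62 ± 0.31 at 72 h (edgeR adjusted p = 0.313) did not pass. At 24 h IL6 was called lower without the filter on low counts (adjusted p = 0.0333) and with both DMSO replicate 1 and 24 h replicate 3 left out (0.0318), but not without 24 h replicate 3 alone (0.0877). Exons of the antisense gene IL6-AS1 covered 20.7% of IL6's exon bases, and as the libraries kept no strand their reads cannot be told apart; IL6-AS1 had 95 counts over all libraries.

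The per-library values of IL11, CSF1, CXCL12 and CCL2 are given because of their spread, and these genes were chosen after the values were seen. IL11, a cytokine that heart fibroblasts release in response to TGF-beta, had 56.4, 27.2 and 24.5 CPM in vehicle, 33.5, 30.4 and 54.2 at 24 h, and 22.4, 20.5 and 19.6 at 72 h. DMSO replicate 1 and 24 h replicate 3 stood well above the rest of their groups, and the 72 h libraries lay below all others. Its log2 differences were 0.14 ± 0.35 at 24 h (edgeR adjusted p = 0.917) and -0.79 ± 0.36 at 72 h (edgeR adjusted p = 0.289). The direction at 24 h turned with single libraries. Without 24 h replicate 3 it was -0.17 (adjusted p = 0.827), and with DMSO replicate 1 also left out it was 0.30 (adjusted p = 0.0307). At 72 h the value with both left out was -0.31 (adjusted p = 0.0206).

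CSF1, the growth factor of macrophages, had mean levels above vehicle at both times. It had 73.7, 73.1 and 64.2 CPM in vehicle, 122.0, 107.4 and 57.7 at 24 h, and 83.3, 83.1 and 83.0 at 72 h. The 24 h group held both the highest and the lowest library, and the 72 h libraries lay above vehicle by a narrow margin. The log2 differences of 0.44 ± 0.23 (edgeR adjusted p = 0.491) and 0.24 ± 0.23 (edgeR adjusted p = 0.651) did not pass. Without 24 h replicate 3, CSF1 was called higher at 24 h (0.70, adjusted p = 1.88e-05) and at 72 h (0.24, adjusted p = 0.0353).

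Of the 9 chemokine genes, 5 were tested and none was called in any comparison. CXCL12, which draws cells that carry CXCR4 and is made by many mesenchymal cells, was the most abundant member, with 371.2, 414.7 and 426.3 CPM in vehicle, 392.9, 374.6 and 168.7 at 24 h, and 272.6, 258.0 and 270.4 at 72 h. The 72 h libraries lay wholly below vehicle, and 24 h replicate 3 was the lowest of all. CXCL12 was -0.60 ± 0.28 at 72 h (edgeR adjusted p = 0.311) and, without 24 h replicate 3, -0.60 with an adjusted p of 2.15e-06.

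CCL2, a monocyte attractant and a classical NF-kappaB target, had the lowest log2 fold change at 72 h among the 28 tested members. Its level was 8.37, 15.2 and 19.4 CPM in vehicle, 13.3, 10.6 and 2.38 at 24 h, and 3.63, 3.82 and 3.90 at 72 h. The 72 h libraries were within a narrow range below all vehicle libraries, while the vehicle and 24 h libraries were widely spread and overlapped. The 72 h value of -1.92 ± 0.60 (3.78-fold lower) missed the threshold (edgeR adjusted p = 0.133) and passed it without 24 h replicate 3 (-1.92, adjusted p = 0.000883). DESeq2 also called it lower.

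None of the neutrophil attractants passed, and differences between these genes were not tested. CXCL8, encoding interleukin 8, had log2 differences of 0.04, -0.10 and -0.14 at 24 h, at 72 h and between the times. CXCL1 had 0.09 ± 0.36, -0.64 ± 0.38 and -0.73 ± 0.37. Its close paralog CXCL2 had -0.52 ± 0.48, 0.80 ± 0.44 and 1.31 ± 0.46 (edgeR adjusted p = 0.233 for the last). CXCL2 lay between 0.329 and 0.760 CPM at 24 h and between 1.22 and 1.70 at 72 h. Reads of CXCL1, CXCL2 and CXCL3 may be split or lost where the authors' counting met near-identical sequence.

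**Figure D3:**
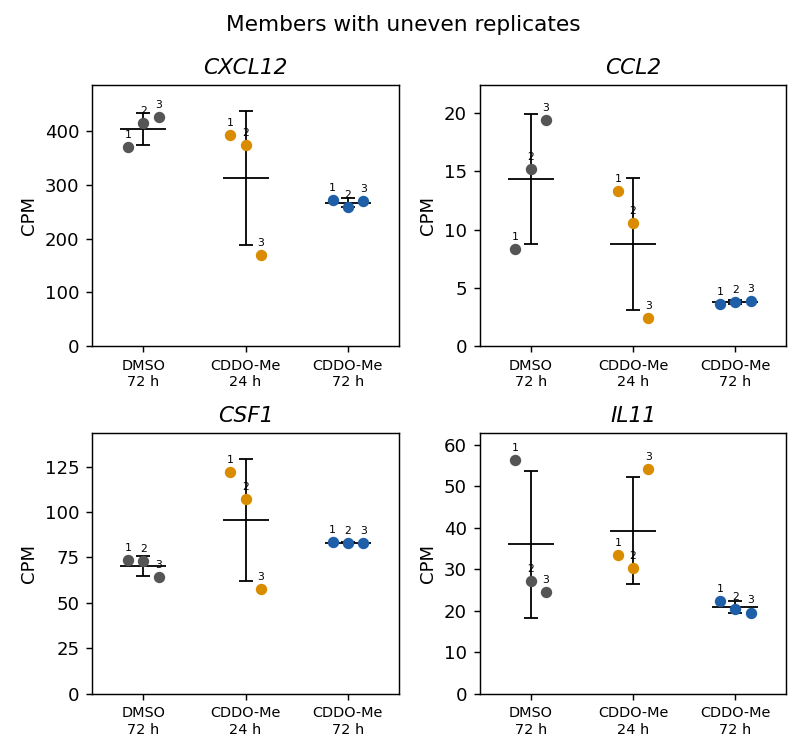
Points are CPM in single libraries, numbered by replicate, with the mean ± SD of 3 libraries, for 4 members with uneven replicates; each axis starts at 0. Replicate 3 of the 24 h group is the lowest of its group in CXCL12 (168.7), CCL2 (2.38) and CSF1 (57.7) and the highest in IL11 (54.2).

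ICAM1 (chromosome 19, 10270835 to 10286615, plus strand) encodes the adhesion receptor that leukocyte integrins bind. It was the 1 member called between the times. It had 25.5, 27.7 and 25.3 CPM in vehicle, 35.8, 30.6 and 22.1 at 24 h, and 19.1, 16.1 and 18.1 at 72 h. The 72 h libraries lay below all others, and the 24 h libraries lay on both sides of vehicle. ICAM1 had fallen 1.47-fold at 72 h against vehicle (-0.55 ± 0.15, edgeR adjusted p = 0.0409) and 1.65-fold against 24 h (-0.72 ± 0.15, edgeR adjusted p = 0.0330), with 0.17 ± 0.15 at 24 h (edgeR adjusted p = 0.698). Each call was lost in 7 of 9 fits that left out 1 library. Against vehicle it held without 24 h replicate 1 or 3 and otherwise reached an adjusted p of up to 0.187. Against 24 h it held without DMSO replicate 1 or 24 h replicate 3 and otherwise reached up to 0.191. Limma-voom gave adjusted p of 0.0696 and 0.0849, a fit of the 24 h and 72 h groups alone gave 0.0855, and without 24 h replicate 3 edgeR gave 0.000941 and 2.98e-05. Endothelial cells are among those that express ICAM1. Of the 5 endothelial markers, TEK had fallen at 72 h (-0.83 ± 0.14, edgeR adjusted p = 0.00267), PECAM1 (-1.70 ± 0.76), KDR (-1.03 ± 0.50) and VWF (0.16 ± 0.43) were not called, and CDH5, with 1 count in all, was not tested. Their part in the ICAM1 result was not tested. Antisense ICAM4-AS1 shared 22.0% of ICAM1's exon bases and had 7 counts in all.

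The prostaglandin genes PTGS2 (cyclooxygenase 2) and PTGES (prostaglandin E synthase) had opposite signs. PTGS2 was 0.87 ± 0.40 at 24 h (edgeR adjusted p = 0.379) and 0.75 ± 0.40 at 72 h (edgeR adjusted p = 0.343), with overlapping groups. PTGES had 2.84, 3.96 and 4.06 CPM in vehicle, 3.03, 2.58 and 1.13 at 24 h, and 1.89, 1.64 and 1.66 at 72 h. Its 72 h libraries lay below vehicle, and its value of -1.06 ± 0.32 missed the threshold (edgeR adjusted p = 0.0685) but was called lower by DESeq2.

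Of 6 feedback inhibitors and related targets, 1 had fallen at 72 h and none was called at 24 h. TNFAIP3 (A20, chromosome 6, 137867188 to 137883312, plus strand) is a ubiquitin-editing enzyme that ends NF-kappaB signalling. It had 12.0, 10.1 and 7.45 CPM in vehicle, 7.22, 5.83 and 7.42 at 24 h, and 5.62, 5.62 and 6.19 at 72 h. Both treated groups lay below the lowest vehicle library, at 24 h by a margin of less than the spread within either group. TNFAIP3 had fallen 1.69-fold at 72 h (-0.76 ± 0.18, edgeR adjusted p = 0.0254), with -0.52 ± 0.18 at 24 h (edgeR adjusted p = 0.198). The call was lost without DMSO replicate 1 or 2 or any single 72 h library (adjusted p of up to 0.121).

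The inhibitor genes that hold NF-kappaB in the cytoplasm were not called. NFKBIA was 0.04 ± 0.13 at 24 h and -0.37 ± 0.14 at 72 h (edgeR adjusted p = 0.142), and NFKBIE was -0.05 ± 0.12 and -0.31 ± 0.12 (edgeR adjusted p = 0.176 at 72 h). In both genes the 72 h libraries lay below all vehicle libraries. TNIP1, a partner of TNFAIP3, was 0.06 and -0.17, NFKBIZ, a nuclear co-regulator, was -0.19 and 0.12, and TNFAIP2 was 0.27 and 0.03. Without 24 h replicate 3, TNFAIP2 was called higher at 24 h (0.38, adjusted p = 0.0377).

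The 5 subunit genes had log2 differences from -0.28 to 0.22 at 24 h and from -0.25 to 0.17 at 72 h. RELA, the main activating subunit, had 129.1, 137.4 and 123.9 CPM in vehicle, 125.8, 118.0 and 139.6 at 24 h, and 123.3, 126.5 and 127.1 at 72 h. All groups overlapped, with -0.03 ± 0.08 at 24 h and -0.05 ± 0.08 at 72 h (edgeR adjusted p = 0.933 and 0.793). NFKB1, the precursor of p50, had 49.5, 39.7 and 40.6 CPM in vehicle, 41.5, 40.9 and 43.0 at 24 h, and 37.6, 38.2 and 38.8 at 72 h. Its 72 h libraries lay just below vehicle (-0.18 ± 0.10, edgeR adjusted p = 0.333). NFKB2, the precursor of p52 in the noncanonical branch, had 52.9, 53.1 and 49.7 CPM in vehicle, 69.8, 61.6 and 50.3 at 24 h, and 58.3, 56.9 and 53.9 at 72 h. Its 24 h group overlapped vehicle through replicate 3 only (0.22 ± 0.11, edgeR adjusted p = 0.407), and without that library it was called higher (0.34, adjusted p = 0.0129). REL and RELB, the less abundant subunits by length-scaled level, were not called either, with REL at -0.28 for 24 h and 0.17 for 72 h, and RELB at 0.14 and -0.25. An unnamed gene on the same strand shared 43.3% of REL's exon bases and had 0 counts. Reads there may not have been counted, so REL's level may be too low. RNA levels say nothing of where the proteins were in the cell.

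BIRC3 (chromosome 11, 102317450 to 102339403, plus strand), whose upstream sequence is printed above, encodes cIAP2, a ubiquitin ligase of the TNF receptor complex. It had 3.88, 4.64 and 4.26 CPM in vehicle, 1.57, 2.74 and 1.75 at 24 h, and 2.91, 1.70 and 1.60 at 72 h. Both treated groups lay wholly below vehicle and overlapped each other. BIRC3 had fallen 2.04-fold at 72 h (-1.03 ± 0.28, edgeR adjusted p = 0.0433), and at 24 h a value of similar size missed the threshold (-1.07 ± 0.28, edgeR adjusted p = 0.0667) but was called lower by DESeq2 and limma-voom. The 72 h call was lost without any single DMSO library or 72 h replicate 2 or 3 (adjusted p of up to 0.211). BIRC2, which encodes the related cIAP1, was -0.17 ± 0.16 and -0.21 ± 0.16. The adaptor TRAF1 was 0.12 ± 0.27 and -0.43 ± 0.28, and none of these passed. Without 24 h replicate 3, BIRC2 was called lower at 24 h (-0.39, adjusted p = 0.0329).

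**Figure D4:**
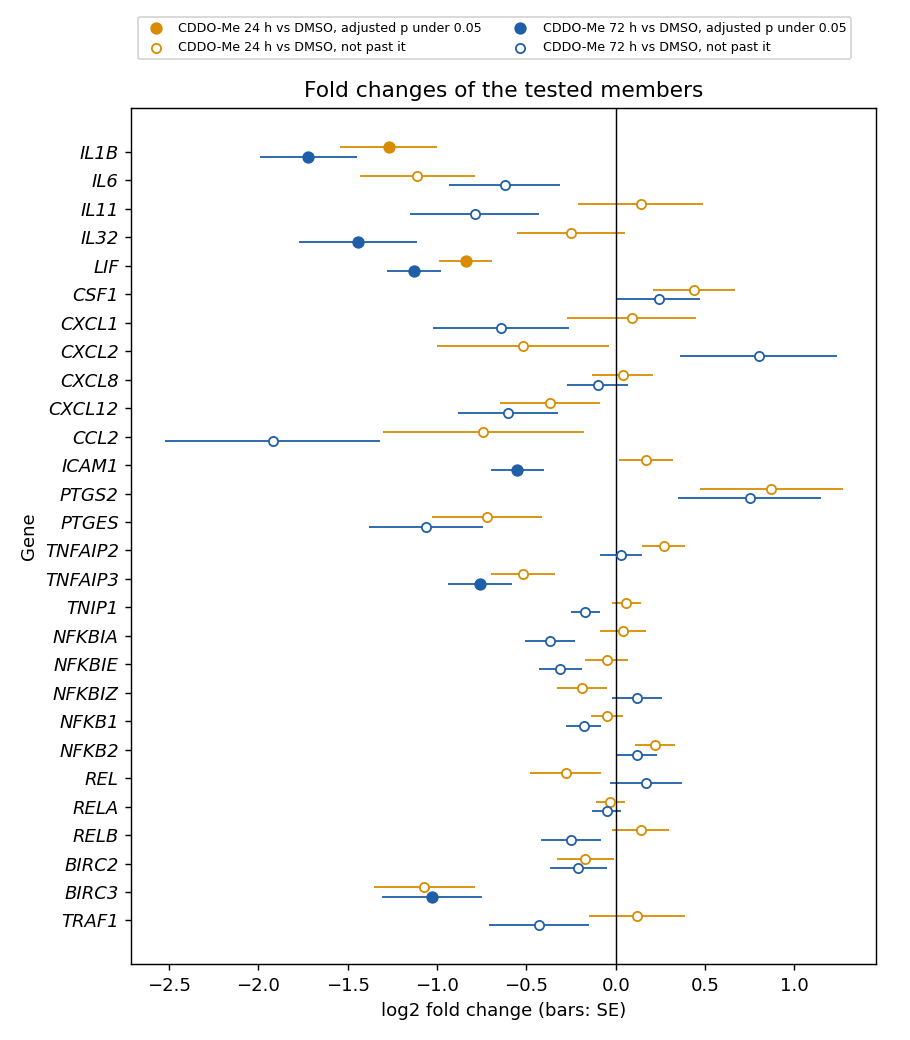
Points are log2 fold changes against vehicle with bars of 1 SE for the 28 tested members, orange at 24 h and blue at 72 h; filled points passed an adjusted p of 0.05. Filled points are all left of 0, the widest bars belong to CCL2 (SE 0.56 and 0.60), and RELA sits nearest to 0 at both times among the subunits.

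Levels were compared between genes per length, as RPKM (CPM per kilobase of the deposited exon length), in the vehicle libraries. CXCL12 was the highest at 66.5 ± 4.79 RPKM (SD, n = 3), followed by RELA at 23.8 ± 1.25 and TNIP1 at 17.1 ± 1.45. IL11 (13.5 ± 6.63), CSF1 (13.0 ± 0.984) and NFKB2 (11.6 ± 0.418) came next, and differences between genes were not tested. NFKBIA (8.05 ± 1.38), LIF (8.04 ± 1.30) and CCL2 (7.20 ± 2.80) had overlapping spreads. IL1B stood at 2.73 ± 0.589, TNFAIP3 at 1.95 ± 0.451, IL32 at 0.847 ± 0.0466 and BIRC3 at 0.566 ± 0.0505, and PTGS2 was the lowest tested member at 0.190 ± 0.0983. After 72 h of CDDO-Me, LIF stood at 3.68 ± 0.224 and CCL2 at 1.91 ± 0.0684 RPKM.

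The 10 members too low to test included inflammatory genes that activated NF-kappaB is known to induce strongly. IL33, an alarmin, and CCL20, a lymphocyte attractant, had 0 counts in all libraries. CSF2 and CSF3, growth factors of granulocytes and macrophages, had 2 and 8 counts over all 9 libraries, IL7, a lymphocyte survival factor, had 13, and IL1A had 30. The adhesion receptor VCAM1 had 45 counts over all libraries, at most 15 in any of them, and CXCL3 had 61, at most 9. The monocyte attractant CCL7 had 0, 4 and 7 counts in vehicle, 0, 4 and 0 at 24 h, and none at 72 h. The T cell attractant CCL5 had 26, 6 and 5 counts in vehicle, 5, 12 and 0 at 24 h, and 0, 1 and 0 at 72 h. CCL5 was called lower at 72 h against vehicle only without the filter on low counts or without 24 h replicate 3 (edgeR adjusted p = 0.000326 and 0.00736). In the latter fit it passed the filter through libraries where it was high. Its 72 h counts were all under the limit of 3, so neither call is read as a result.

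The rest of the pathway was read from lists of other genes. Of 28 tested receptors, adaptors and kinases, 1 was higher at 24 h, and at 72 h 1 was higher and 1 lower. Of all genes, 0.969% were higher at 24 h, and at 72 h 2.89% were higher and 3.13% lower. IL1R1, the signalling receptor of interleukin 1, had risen from 53.8 ± 10.6 CPM in vehicle to 78.6 ± 6.22 at 24 h and 79.7 ± 5.65 at 72 h (SD, n = 3), by 0.55 ± 0.12 (edgeR adjusted p = 0.0304) and 0.57 ± 0.12 (edgeR adjusted p = 0.0125) on the log2 scale. It thus stood opposite in sign to its ligand gene IL1B. The adjusted p reached 0.148 at 24 h without 1 of 6 libraries (all but DMSO 3, 24 h 3 and 72 h 2) (0.122 with only the compared groups in the fit), and 0.0752 at 72 h without DMSO 2, 72 h 1 or 72 h 3. TRAF3, an adaptor that restrains the noncanonical branch, had fallen at 72 h (-0.39 ± 0.11, edgeR adjusted p = 0.0448). This call was lost when any library other than 24 h replicates 1 and 3 was left out (up to 0.193), and with limma-voom (0.0576). The kinase genes CHUK, IKBKB and IKBKG were not called.

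Among 15 other inhibitors and ubiquitin enzymes 1 was called, higher at both times. Of all genes, 0.969% were higher at 24 h and 2.89% at 72 h. TNIP3, a TNFAIP3-binding inhibitor, had 3, 3 and 1 counts in vehicle, 10, 17 and 69 at 24 h, and 19, 22 and 18 at 72 h. Every treated library exceeded every vehicle library. The vehicle counts did not exceed the limit of 3, so TNIP3 passed the filter only through treated libraries. Against vehicle it could then only be called higher, and its calls are not read as a result. The fitted log2 differences were 3.47 ± 0.65 (edgeR adjusted p = 0.0110) and 3.03 ± 0.68 (edgeR adjusted p = 0.0154), and with so few vehicle counts their size depends on the fit. With 1 library left out they ranged from 2.55 (without 24 h replicate 3) to 3.80 at 24 h and from 2.66 to 3.26 at 72 h. They were lost without DMSO replicate 2 or 3 and, at 72 h, without 72 h replicate 2 (adjusted p of up to 0.0646 and 0.0690). The 24 h call was also lost with only the compared groups in the fit (0.0515).

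Of 20 other tested NF-kappaB target genes, 2 were lower at each time and none higher, with medians of 0.02 at 24 h and 0.0 at 72 h. Of all genes, 1.18% were lower at 24 h and 3.13% at 72 h. At 72 h 4 of the 20 lay wholly below vehicle and 6 wholly above, against 15.2% and 15.5% of all genes. SDC4, a heparan sulfate proteoglycan of the cell surface, had fallen from 264.8 ± 20.4 CPM to 196.9 ± 8.96 at 24 h and 145.0 ± 2.89 at 72 h (SD, n = 3). Its log2 changes were -0.43 ± 0.08 (edgeR adjusted p = 0.00747) and -0.87 ± 0.08 (edgeR adjusted p = 9.62e-06), and the 72 h call held in all 16 alternative fits. The 24 h call reached 0.0517 without DMSO replicate 2. IER3, a stress-induced survival gene, had fallen at 24 h (-0.54 ± 0.10, edgeR adjusted p = 0.00882) and stood at -0.17 ± 0.10 at 72 h (edgeR adjusted p = 0.395). With only the compared groups in the fit, the 24 h calls of SDC4 and IER3 were lost (0.0644 and 0.0621). PLAU, which encodes urokinase, had fallen at 72 h (-1.42 ± 0.28, edgeR adjusted p = 0.0108), a call lost without 72 h replicate 2 or 3 (up to 0.0589). SOD2 was not matched, because 2 gene models carry its name.

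Of 15 other tested cytokines and chemokines, none was called at 24 h, and at 72 h 2 were higher, where 2.89% of all genes were, and none was lower. IL12A, a subunit of interleukins 12 and 35, had risen from 2.22 to 4.62 CPM (1.06 ± 0.23, edgeR adjusted p = 0.0121), a call lost without 72 h replicate 2 or 3 (up to 0.0781). IL15 had risen from 2.75 to 4.96 CPM (0.85 ± 0.23, edgeR adjusted p = 0.0459). This call was lost when any library other than 24 h replicate 3 and 72 h replicate 2 was left out (up to 0.259), and with limma-voom (0.0764). TNF had 4 counts over all libraries and was not tested.

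Among 13 tested receptors of the members' ligands, none was called at 24 h, and at 72 h 2 were higher and 1 lower. Of all genes at 72 h, 2.89% were higher and 3.13% lower. IL6R had risen from 6.40 ± 1.14 to 12.3 ± 0.268 CPM (0.94 ± 0.16, edgeR adjusted p = 0.00196), which held in all 16 alternative fits. ACKR3, an atypical receptor that takes up CXCL12, had risen from 1.80 to 4.20 CPM (1.23 ± 0.26, edgeR adjusted p = 0.0102), a call lost without 72 h replicate 1 or 2 (up to 0.0561). ITGA4, the integrin chain that binds VCAM1, had fallen (-0.50 ± 0.12, edgeR adjusted p = 0.0265), a call lost without DMSO 2, DMSO 3 or any 72 h library (up to 0.129). The LIF receptor chains LIFR and IL6ST were not called.

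Promoter matches were set beside the responses as a description. Of the 38 members, 30 had a RefSeq promoter, LIF not among them. The kappaB consensus, searched on both strands in the 250 bases before the start, was found in 13 of these 30, where 5.05% of all 27305 promoters held it. GGANNTTCC, which overlaps the consensus, was also found in 13 of 30, against 3.88% of all. The AP-1 motif TGANTCA was found in 4 of 30, against 6.60%, and the antioxidant response element core TGACNNNGC in 3 of 30, against 11.0%. The members were listed as NF-kappaB genes, so their share of kappaB matches is no independent result.

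Genes with and without a match were found on both sides of the threshold. Of the 5 called members with a promoter, IL32, TNFAIP3 and BIRC3 held the kappaB consensus, ICAM1 held only GGANNTTCC, and IL1B held neither in this window. None of the 5 held the AP-1 motif or the antioxidant response element core. Among the uncalled tested members with the consensus, the log2 values at 72 h were -0.62 for IL6, -0.64 for CXCL1, 0.80 for CXCL2, -0.37 for NFKBIA, 0.12 for NFKBIZ, -0.18 for NFKB1 and 0.17 for REL. CXCL1 and CXCL2, neither of them called, had the same capital letters in the windows printed above. The RefSeq start and the start in the deposited table differ by 106 bases for IL32, 285 for ICAM1, 71 for TNFAIP3, 34 for BIRC3 and 1316 for IL6, and which start was used in AC16 cells was not tested. A match is a run of letters, not a bound site.

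**Figure D5:**
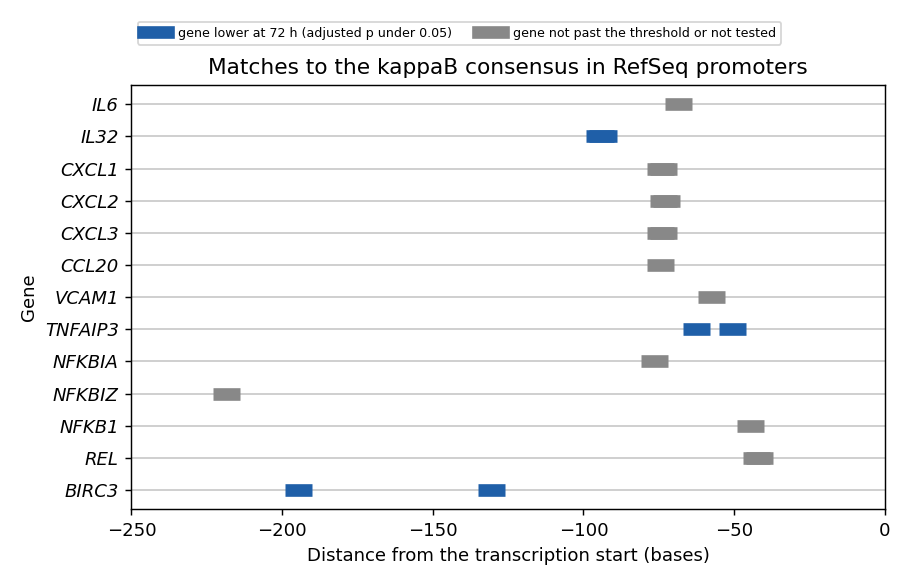
Boxes mark matches to the kappaB consensus in the 250 bases before the RefSeq start (axis: distance in bases) for the 13 members that hold one, blue where the gene was lower at 72 h and grey where it was not called or not tested. The matches of BIRC3 and NFKBIZ lie farther from the start than those of the other genes shown.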

How the data were processed

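Libraries were made from polyadenylated RNA with a kit that keeps no strand, per the labels' protocols. The authors deposited whole-number read counts per gene with no normalization. Per the submitters' processing notes, featureCounts (Subread), SAMtools and STAR were used, with the builds GRCh38 and hg38. The sources used here give no versions, no annotation release and no setting for strand or multiply matching reads. Totals of 16898977 to 27910031 counts per library set the precision, and the limit of 3 counts covers counting error only.

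Members were matched through a table of gene names that covered 57717 of 58299 gene IDs. Samples were grouped by their treatment labels. All 9 libraries were fitted together with edgeR 4.0.16 (quasi-likelihood, robust, TMM scaling, filterByExpr; limma 3.58.1; R 4.3.3) as 3 group means with 6 residual degrees of freedom. This kept 14965 genes, which held 99.87 to 99.9% of the counts. P-values were adjusted over these (Benjamini-Hochberg), and genes under 0.05 were called. Each SE is the log2 fold change, without its sign, divided by the square root of F. The common biological coefficient of variation was 11.5%. The edgeR fit was also run on simulated counts, which held no library that stood apart as 24 h replicate 3 did. The outcome is not used here. Alternatives were RLE scaling, no filter, DESeq2 1.42.0, limma-voom, 2-group fits, each library left out, DMSO replicate 1 and 24 h replicate 3 both left out, and a replicate block. Same-numbered libraries were checked for shared deviations.

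The members and lists were chosen with earlier results of these data known. Values are given per library for members called in at least 1 comparison and for the 3 most abundant subunit genes. Of the other lists, up to 3 called genes per direction and comparison are named. Promoter sequences are from RefSeq (GRCh38.p14).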

Additional observations from a re-analysis of the deposited data

Results flagged for a closer look

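The change against vehicle differed between the times in 2 of the genes named above, by the edgeR test of 72 h against 24 h. In it the vehicle mean cancels, but the vehicle libraries still enter the estimate of the spread. ICAM1 stood at 0.17 at 24 h and -0.55 at 72 h, a difference of -0.72 ± 0.15 (edgeR adjusted p = 0.0330). That call was lost in 7 of 9 fits that left out 1 library (edgeR adjusted p of up to 0.191), among them those without DMSO replicate 2 or 3. SDC4 stood at -0.43 and -0.87, a difference of -0.44 ± 0.08 (edgeR adjusted p = 0.0105), which was lost without any single 72 h library (adjusted p of up to 0.109). A 24 h vehicle was not analysed here, so time in culture and time under CDDO-Me cannot be told apart in these differences.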

How the results depend on the processing

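The median log2 fold change of the members stayed below 0 in every alternative run, from -0.09 to -0.04 at 24 h, -0.38 to -0.26 at 72 h and -0.34 to -0.14 between the times. Counts moved more, and the cause was not tested. Leaving out 1 library gave 0 to 4 members higher and 1 to 4 lower at 24 h, 0 to 1 higher and 2 to 10 lower at 72 h, and 0 to 9 lower between the times. The counts of 10 and 9 include CCL5, which was not tested with all libraries. It gave 134 to 1657 of all genes called at 24 h, 401 to 1972 at 72 h and 32 to 1843 between the times, where all libraries gave 321, 901 and 152. With both DMSO replicate 1 and 24 h replicate 3 left out, 5 members were higher and 6 lower at 24 h, 1 was higher and 11 lower at 72 h, and 16 were lower between the times, and all genes called were 3464, 2724 and 3471. Without the filter on low counts, 4 members were lower at 24 h and 2 between the times, and 662 and 507 of all genes were called. DESeq2 called 526 genes at 24 h and 388 between the times. With only the compared groups in the fit, 1 member was lower at 24 h, 9 were lower and 1 higher at 72 h, and 0 were lower between the times. That fit called 100 of all genes at 24 h and 1776 at 72 h. Limma-voom called 0 members lower between the times. Among the comparisons of the 6 called members, 2 uncalled log2 values changed sign. IL32 at 24 h ranged from -0.60 to 0.02 with 1 library left out, at 0.02 without 24 h replicate 1. BIRC3 between the times ranged from -0.29 to 0.32, at -0.09 without 24 h replicate 1, -0.06 without 24 h replicate 3, -0.06 with DMSO replicate 1 also left out, and -0.29 without 72 h replicate 1. Other uncalled members with values near 0 changed sign too, among them IL11 at 24 h (-0.17 without 24 h replicate 3). With the replicate block, 2, 6 and 1 members were lower and 358, 963 and 219 genes were called, and no call of a member changed, while IL15 at 72 h lost its call (edgeR adjusted p = 0.0553). Deviations of same-numbered libraries correlated weakly, at -0.028 to 0.082, where those of different-numbered libraries correlated at -0.109 to 0.04. Not every library correlated best with its own number, and whether a number marks a shared culture was not tested. Below a few counts per library (0.107 to 0.178 CPM for 3 counts) differences could not be read.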
